A study of Mus musculus with 14 samples.

Results

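The 10 genes described here encode transcription factors that pattern the limb and other embryonic mesoderm, namely Prrx1, Prrx2, Msx1, Msx2, Meox1, Meox2, Osr1, Osr2, Tcf21 and Alx4. They were taken as a named list, 10 of 21938 protein-coding genes of the GENCODE annotation of mouse. A peak of trimethylated lysine 4 of histone H3 (H3K4me3) belonged to a gene when it reached to within 1 kb of a transcription start site (TSS) of the gene or into the gene body. By this rule 14 of 25357 peaks belonged to the 10 genes, and 84 of 32965 putative enhancers lay within 200 kb of them.

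The ChIP-seq libraries were made from iMEF cells, immortalised mouse embryo fibroblasts with floxed Ash2l alleles (Ash2l fl/fl) and a Cre-ER recombinase. Exon 4 of Ash2l had been deleted with hydroxytamoxifen in all of these cells, and a lentiviral FKBP12F36V fusion of human ASH2L, a core subunit of the H3K4 methyltransferase complexes, took its place. The study used NG3, which is 1 clone. The 12 H3K4me3 libraries came from cells without dTAG, the compound that triggers degradation of the fusion, and from cells with dTAG for 30 min, 2 h, 4 h, 8 h or 16 h, with 2 replicates each, beside 2 input libraries. The peak list is a union over all of these libraries and the enhancer list describes control cells. Both give positions only. A listed peak may therefore come from treated or untreated cells, no value below has a replicate error, and no time points were compared.

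H3K4me3 is deposited at the start sites of active genes and of many genes whose promoters are rich in the dinucleotide CpG. Most of the 10 genes have a close relative, or paralogue, that arose by gene duplication and kept a similar DNA-binding domain, while expression in the embryo diverged in part. Fibroblasts keep much of the patterning factor expression of the mesenchyme they came from, and several of these factors are used as labels of limb, craniofacial or kidney mesenchyme.

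Of the 10 genes, 8 carried a peak by the rule, beside 61.7% of all protein-coding genes. At a TSS, 7 of 10 carried one, beside 59.1% of all. Both members of the Prrx, Msx and Osr pairs and Meox2 were marked at a start site. Meox1 had a peak only inside the gene, and Tcf21 and Alx4 had none. The 10 genes have 23 annotated TSSs, of which 11 lay in a peak and 14 within 1 kb of one. Over the 93459 TSSs of all coding genes these shares were 42.6% and 49.5%. The median of the widest TSS peak over the 7 genes was 1638 bp, beside 1255 bp over all coding genes marked in this way, and 6 of the 7 were wider than that value. Members are not replicates of each other, and with 10 genes these counts are given as a description.

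Promoter sequences of 4 genes are shown because they differ in CpG content and in marking. Prrx1 and Prrx2 carried the widest peaks, Meox2 was marked, and Tcf21 was not. Each runs from 250 bases before to 50 bases after the RefSeq start in GRCm38.p6, 5′ to 3′ on the strand of the gene, with each CpG in capitals. The Prrx1 window is chr1:163313601-163313900 (minus strand), the Prrx2 window chr2:30845117-30845416 (plus strand), the Meox2 window chr12:37108290-37108589 (plus strand) and the Tcf21 window chr10:22820094-22820393 (minus strand).
Prrx1: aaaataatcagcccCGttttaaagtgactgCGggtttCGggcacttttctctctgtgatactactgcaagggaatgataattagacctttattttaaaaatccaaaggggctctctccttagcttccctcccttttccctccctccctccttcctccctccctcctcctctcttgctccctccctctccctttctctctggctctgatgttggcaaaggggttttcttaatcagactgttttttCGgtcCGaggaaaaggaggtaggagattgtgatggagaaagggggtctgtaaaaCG
Prrx2: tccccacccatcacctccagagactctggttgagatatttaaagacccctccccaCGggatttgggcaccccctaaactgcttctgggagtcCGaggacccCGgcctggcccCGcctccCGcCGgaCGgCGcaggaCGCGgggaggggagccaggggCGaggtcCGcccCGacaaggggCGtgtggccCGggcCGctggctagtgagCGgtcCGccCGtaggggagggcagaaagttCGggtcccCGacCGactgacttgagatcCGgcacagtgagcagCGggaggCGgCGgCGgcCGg
Meox2: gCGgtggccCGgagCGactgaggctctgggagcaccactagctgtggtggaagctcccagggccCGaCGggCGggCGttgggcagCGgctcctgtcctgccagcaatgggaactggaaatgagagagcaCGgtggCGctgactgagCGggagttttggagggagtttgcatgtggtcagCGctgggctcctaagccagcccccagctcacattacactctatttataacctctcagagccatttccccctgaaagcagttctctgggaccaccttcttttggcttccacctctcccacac
Tcf21: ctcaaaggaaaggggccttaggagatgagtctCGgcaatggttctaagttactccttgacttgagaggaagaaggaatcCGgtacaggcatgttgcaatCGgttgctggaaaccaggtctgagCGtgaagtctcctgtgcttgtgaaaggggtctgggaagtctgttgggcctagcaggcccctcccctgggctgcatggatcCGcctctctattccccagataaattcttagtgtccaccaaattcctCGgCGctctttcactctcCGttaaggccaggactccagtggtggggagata

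The Prrx1 window held 6 CpGs, the Prrx2 window 28, the Meox2 window 12 and the Tcf21 window 8. Over 32851 RefSeq promoters of this length the median was 7, with quartiles of 3 and 20. Among the other genes in the RefSeq table, Msx1 had 29 and Msx2 had 22. The Prrx2 and Meox2 windows lay in a peak over all 300 bases, the Prrx1 window over 258, the Msx1 window over 168 and the Msx2 window over 117, while no base of the Tcf21 window did. Prrx1 and Tcf21 thus had similar CpG counts around the RefSeq start and opposite marking. Meox1, Osr1, Osr2 and Alx4 were not in the promoter table.

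Promoter motifs were searched on both strands. TATAAA, the core of the TATA box, was in the Meox2 window, beside 13.6% of all promoters. CCAAT was in the Msx1 and Msx2 windows, beside 37.4% of all. GGGCGG, a GC box, was in those of Prrx2, Msx1, Msx2 and Meox2, beside 35.7% of all. TAATTA, a core bound by many homeodomain proteins, was in those of Prrx1 and Msx2, beside 5.29% of all. None of these motifs was in the Tcf21 window. The motifs can share end bases and were counted separately.

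**Figure D1:**
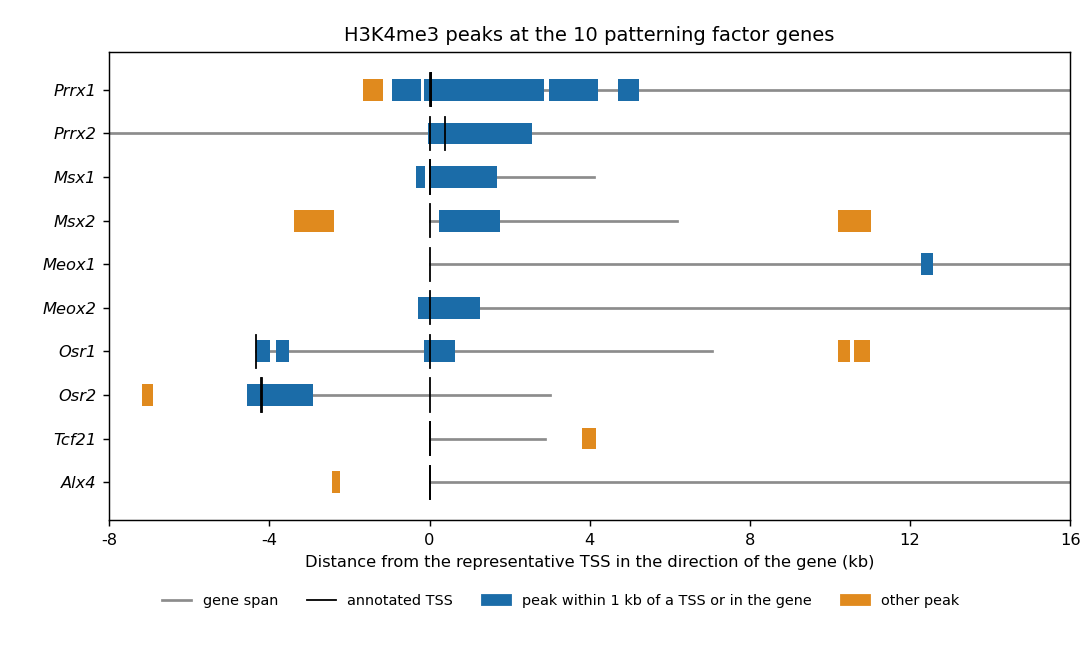
H3K4me3 peaks at the 10 genes against the distance in kb from the representative TSS, in the direction of the gene. Grey lines are gene spans, black ticks annotated TSSs, blue bars peaks that belong to the gene and orange bars other peaks. Meox1 has its only blue bar 12.3 kb into the gene, and Tcf21 and Alx4 have none.

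Prrx1 and Prrx2 are paired-type homeobox factors of limb and craniofacial mesenchyme, and they carried the widest peaks of the list. Prrx1 (chr1:163245119-163313710, minus strand) had a peak of 3018 bp at chr1:163310841-163313858, from 148 bp before to 2869 bp after the TSS. A widest peak of this width or more was found at 3.06% of all marked coding genes. Coding sequence made up 7.99% of the peak, noncoding exon 35.6% and intron 51.5%, and 4.90% lay outside the gene. A peak of 716 bp lay upstream, from 941 to 226 bp before the TSS. In an intron a peak of 1236 bp began 2982 bp after the TSS and a peak of 536 bp began 4703 bp after it. A further peak of 493 bp, 1161 bp upstream of the TSS, was outside the rule.

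The 4 peaks of Prrx1 summed to 5506 bp, and 1.25% of marked coding genes had as large a sum. As many peaks were found at 3.81% of all coding genes. When peaks within 1 kb of each other were joined, the whole region spanned 6892 bp, which includes the upstream 493 bp peak outside the rule. The 536 bp peak lay 60 bp from the start of Gm37644, a provisional transcript model (biotype TEC) on the same strand. The 1236 bp peak lay 426 bp from that start. The nearest Prrx1 TSS was farther away, 4661 bp from the 536 bp peak and 2940 bp from the 1236 bp peak. Both peaks count in the sum and the number of peaks above, and the part of the Gm37644 start in them was not tested. A later Prrx1 TSS, 24486 bp into the gene, had its nearest peak 19248 bp away.

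Prrx2 (chr2:30834972-30881251, plus strand) had a single peak of 2590 bp at chr2:30845025-30847614. It reached from 34 bp before to 2555 bp after the TSS, and 5.99% of marked coding genes had a widest peak of at least this width. It contained the representative TSS and another 385 bp downstream. Starts 10087 bp upstream and 34260 bp downstream lay 6642 and 31705 bp from any peak. The coding sequences of Prrx1 and Prrx2 were identical at 67.6% of aligned bases. The observed/expected CpG ratio over 1 kb on either side of the TSS was 0.489 at Prrx1 and 0.613 at Prrx2. The widest peaks were 3018 and 2590 bp, and the summed peaks 5506 and 2590 bp.

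Msx1 and Msx2, homeobox factors that act downstream of BMP signals in limb, tooth and skull, had peaks that began inside the gene. Msx1 (chr5:37820485-37824583, minus strand) had a peak of 1668 bp at chr5:37822889-37824556, from 27 to 1694 bp after the TSS, and a peak of 225 bp from 330 to 106 bp before it. Its TSS fell in the gap between them. All of the 1668 bp peak lay in annotated exons of the gene, 28.1% of it in coding sequence and 71.9% in noncoding exon, a class that includes a transcript model with a retained intron. Joined, both peaks spanned 2025 bp.

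Msx2 (chr13:53466884-53473074, minus strand) had a peak of 1544 bp at chr13:53471304-53472847, from 227 to 1770 bp after its TSS, with 24.5% coding sequence. A peak of 1008 bp lay 2378 bp upstream, outside the rule, on a putative enhancer, and one of 823 bp lay 10201 bp downstream of the TSS. No annotated TSS was nearer to either than that of Msx2. RefSeq places the Msx2 start 294 bp downstream of the GENCODE start used here, inside the 1544 bp peak. The Msx1 and Msx2 coding sequences were identical at 69.3% of aligned bases, and the start regions had observed/expected CpG ratios of 0.648 and 0.660.

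Meox1 and Meox2, homeobox factors of the somites, differed at their starts. Meox2 (chr12:37108540-37179534, plus strand) had a peak of 1544 bp at chr12:37108251-37109794, from 289 bp before to 1254 bp after its TSS, with 33.3% coding sequence. The peak also overlapped the gene Gm48617. Meox1 (chr11:101877510-101894374, minus strand) had no peak within 1 kb of its TSS. Its only peak, of 293 bp at chr11:101881800-101882092, lay wholly in an intron, from 12282 to 12574 bp after the TSS and 4145 bp from the nearest TSS of any gene. It fell on a putative enhancer of 1384 bp at chr11:101880961-101882344. A widest peak of at least 293 bp was found at 96.4% of marked coding genes.

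The Meox1 peak is shown because it is the sole H3K4me3 region of the gene and lies far from any start. It is given on the plus strand in GRCm38.p6, with each CpG in capitals.
Meox1 intronic peak: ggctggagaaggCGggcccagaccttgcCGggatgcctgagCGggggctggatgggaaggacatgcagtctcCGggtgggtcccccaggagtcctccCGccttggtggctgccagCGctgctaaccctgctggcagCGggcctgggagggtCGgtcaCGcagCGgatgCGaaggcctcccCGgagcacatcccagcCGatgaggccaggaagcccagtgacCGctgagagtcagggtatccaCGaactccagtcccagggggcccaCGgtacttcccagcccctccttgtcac

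This sequence held 16 CpGs at a GC content of 68.6%, with an observed/expected ratio of 0.465. The region around the Meox1 TSS was poorer in CpG, at a ratio of 0.317 and a GC content of 50.3%, and that of Meox2 was at 0.460 and 55.6%. Both promoters fell in the same CpG class, defined below, and only that of Meox2 was marked. The coding sequences were identical at 62.0% of aligned bases.

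Osr1 and Osr2 are zinc finger factors of the odd-skipped family, known for roles in kidney and limb mesenchyme and, for Osr2, the palate. Both were marked at more than 1 start or away from the representative one. Osr1 (chr12:9570116-9581500, plus strand) had a peak of 786 bp at chr12:9574291-9575076, from 150 bp before to 635 bp after its representative TSS. At the upstream TSS, 4325 bp before that one, a peak of 366 bp contained the start and a peak of 313 bp began 492 bp after it. The start of 1700022H16Rik, a long noncoding RNA on the opposite strand, lay between these peaks, 125 bp from the first and 23 bp from the second. Marking of this RNA and of the upstream Osr1 start cannot be told apart. With 786 bp, Osr1 had the narrowest widest TSS peak of the 7 genes, and 83.0% of coding genes with a TSS peak had one at least as wide.

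Osr2 (chr15:35296098-35303305, plus strand) had a single peak of 1638 bp at chr15:35295753-35297390. It covered a pair of upstream TSSs and reached from 345 bp before to 1292 bp after the first of them. The start of the principal transcript, 4202 bp downstream of that first TSS, was 2910 bp from the peak. No coding sequence lay in it. The coding sequences of Osr1 and Osr2 were identical at 69.1% of aligned bases, and the representative starts had observed/expected CpG ratios of 0.442 and 0.496.

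Tcf21, a basic helix-loop-helix factor of epicardial, lung and kidney mesenchyme, had no peak. At chr10:22817281-22820174 (minus strand), its nearest peak was 351 bp wide and began 3799 bp after the TSS, beyond the end of the gene. That peak lay 276 bp from the start of Gm10824, annotated as antisense, on the opposite strand. Alx4, a paired-type homeobox factor of the anterior limb bud and face, had none either. At chr2:93642384-93681339 (plus strand), its nearest peak was 205 bp wide, ended 2229 bp before the TSS and had no other annotated start nearer to it. The nearest coding gene with a TSS peak was Tbpl1 for Tcf21, at 88.7 kb, and Cd82 for Alx4, at 179 kb. For Meox1 it was Dusp3, at 90.4 kb. Over the 840 coding genes with a CpG-rich promoter and no TSS peak, the median distance from the TSS to a peak was 50.8 kb, with quartiles of 17.9 and 111 kb, so the peaks beside Tcf21 and Alx4 were nearer than the lower quartile.

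At all 7 genes with a TSS peak, the centre of the widest one lay downstream of the TSS of the gene nearest to that peak. Over all coding genes with such a peak this held for 74.8% (9694 of 12966). The median offset was 860 bp for the 7 genes and 259 bp over all. Prrx1 had the centre 1319 bp downstream, Prrx2 1261 bp, Msx2 999 bp and Msx1 860 bp. The offsets of Meox2, Osr2 and Osr1 were 483, 474 and 243 bp. Where a peak contained several TSSs of a gene, the one with the lowest coordinate was used. That is the most upstream one on the plus strand and the most downstream one on the minus strand. The Prrx2 peak also held a TSS 385 bp downstream of the one used, from which the offset is smaller.

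To compare promoters by sequence, 500 bp windows within 1 kb of the representative TSS were classed by CpG. A promoter was high in CpG when a window had an observed/expected ratio over 0.75 and a GC content over 55%, low when no window exceeded a ratio of 0.48, and otherwise intermediate. Over all coding genes, a TSS peak was found at 92.3% of high, 54.0% of intermediate and 10.0% of low CpG promoters. Of the 10 genes, 5 were high and 5 intermediate, and none was low. In the high class, Prrx2, Msx1 and Msx2 were marked and Tcf21 and Alx4 were not. In the intermediate class, Prrx1, Meox2, Osr1 and Osr2 were marked and Meox1 was not. By class, 3 of 5 and 4 of 5 of the genes were marked. Tcf21 was near the limit, with a best window ratio of 0.754, whereas Alx4 reached 0.955. Prrx1 was near it from the other side, since its best window ratio was 0.761 but no such window had a GC content over 55%.

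**Figure D2:**
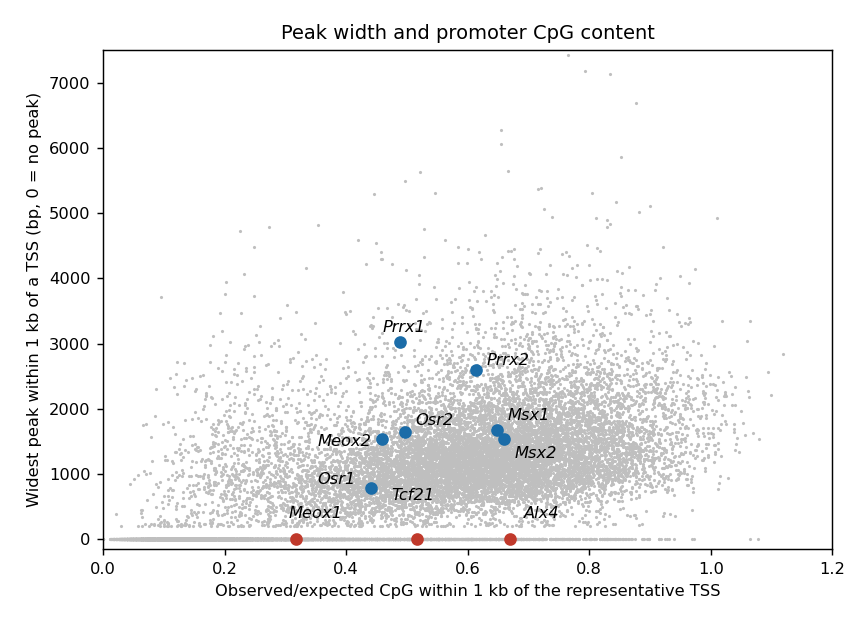
Width in bp of the widest peak within 1 kb of a TSS (0 where there is none) against the observed/expected CpG ratio within 1 kb of the representative TSS. Grey points are all coding genes, blue points marked and red points unmarked members of the list. Prrx1 stands highest at 3018 bp with a ratio of 0.489, while Alx4 has no peak at 0.670.

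Paralogues outside the list were compared in the same way. Alx1, known for a role in the facial skeleton, was like Alx4 without a peak by the rule although it had a high CpG promoter, with an observed/expected ratio of 0.671 beside 0.670 for Alx4. The nearest peak lay 150 kb from the representative TSS of Alx1, beside 2.23 kb for Alx4, and Alx1 had no enhancer within 200 kb. The coding sequences of Alx4 and Alx1 were identical at 62.2% of aligned bases.

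Msx3, a factor of the dorsal neural tube, was marked like Msx1 and Msx2, but by peaks of 645 and 273 bp, and 87.8% of marked coding genes had a widest peak at least as wide as 645 bp. The coding sequence of Msx3 was identical to those of Msx1 and Msx2 at 72.4% and 70.3% of aligned bases. Among relatives of Tcf21, Msc, a factor of facial muscle precursors, had a peak of 877 bp and Tcf24 one of 764 bp. The Msc peak contained the start of the antisense gene Gm9947 and the Tcf24 peak lay 317 bp from the start of E330040D14Rik, so these starts cannot be told apart from those of Msc and Tcf24 by position. Tcf23 had no peak and a low CpG promoter, with a ratio of 0.130. Tcf21 and Msc coding sequences were identical at 69.9% of aligned bases, as close as the marked pairs, while only Msc was marked.

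Putative enhancers are regions with H3K4me1, H3K27ac and accessible chromatin that the authors selected outside 1 kb of known TSSs. In the annotation used here, some still had centres within 1 kb of a TSS. These were 4 around Prrx2, 1 around Prrx1 and 1 around Meox1. Without them the counts within 200 kb were 23, 21 and 11, while those below include them. All 10 genes had at least 1 within 200 kb of the representative TSS, beside 84.4% of all coding genes. The median was 4, against 5 over all genes with quartiles of 2 and 9, and 4 of the 10 genes had more than 5. Prrx1 and Prrx2 held 49 of the 84. The nearest enhancer lay within 40 kb of 7 of the genes, beside a median distance of 40.4 kb over all coding genes.

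Prrx1 had 22 enhancers within 200 kb, and 1.16% of coding genes had as many. Of these, 9 lay in the gene body and 12 were nearer to the Prrx1 TSS than to that of another coding gene. Only 1 other coding gene, Gorab, had its representative TSS in the window. One enhancer of 1844 bp, 1078 bp after the TSS, overlapped the 3018 bp peak. The others were narrow, with a median over all 22 of 404 bp. Prrx2 had 27, and 0.319% of coding genes had as many. Its window was crowded, with 8 other coding genes, 7 of them marked, and 2 of the 27 enhancers were nearest to Prrx2. These lay in the gene, 2235 bp before and 19277 bp after the TSS. The other enhancers were nearest to 1700001O22Rik (10), Usp20 (5), Cstad (4), Ptges (4) and Asb6 (2). The paralogues thus had similar counts within 200 kb and different counts nearest to them.

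**Figure D3:**
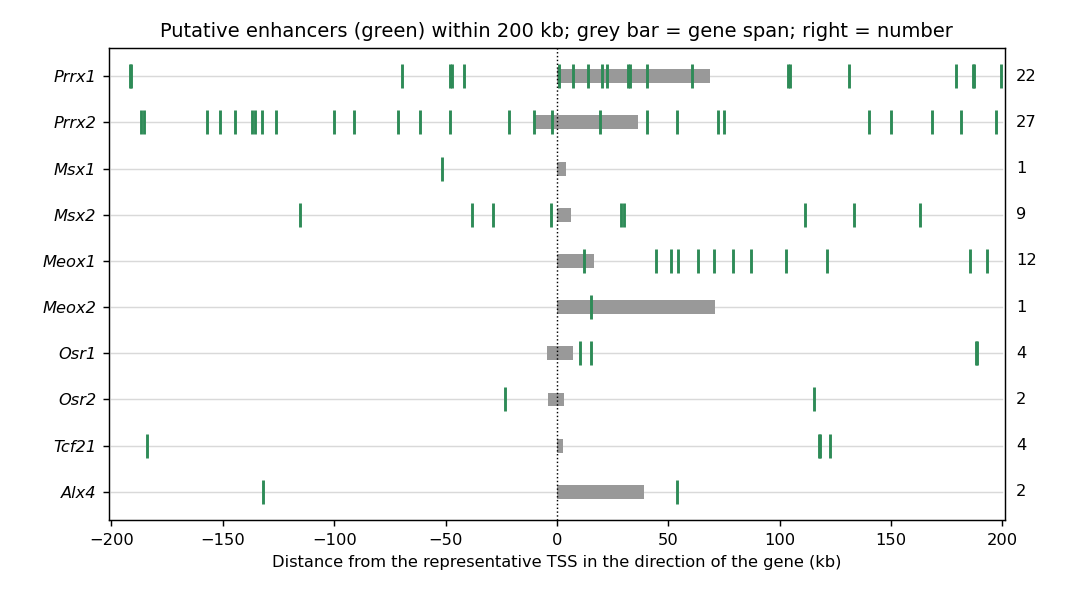
Putative enhancers (green ticks) within 200 kb of the representative TSS of each gene, against the distance in kb in the direction of the gene. Grey bars are gene spans and the number at the right counts the ticks, from 1 at Msx1 and Meox2 to 27 at Prrx2. The 12 ticks of Meox1 all lie downstream of its TSS.

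The Msx and Meox pairs were each uneven. Msx1 had 1 enhancer, 51.5 kb upstream, and Msx2 had 9, of which 6 were nearest to it and 1, 2535 bp upstream, overlapped the 1008 bp peak described above. Meox2, marked at its start, had 1 enhancer, of 213 bp in an intron 15.4 kb after the TSS. Meox1, unmarked at its start, had 12, all downstream, and 14.3% of coding genes had as many. Of these 12, 3 were nearest to Meox1, 7 to Etv4 and 2 to Dhx8. The number of enhancers and the mark at the start thus ran opposite ways in the Meox pair.

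Osr1 had 4 enhancers, all downstream and all nearest to it, in a window with no other coding start. A pair of them lay at 10.6 and 15.3 kb and another pair at 188 and 189 kb. The one at 10.6 kb overlapped a peak of 418 bp. Osr2 had 2, at 23.1 kb upstream and 115 kb downstream of its internal representative start. Tcf21 had 4, none within 100 kb, of which 3 lay 118 to 123 kb downstream nearest to Tbpl1 and 1 lay 184 kb upstream nearest to Tcf21. Alx4 had 2, one 54.0 kb downstream in the neighbouring gene Ext2 and one 132 kb upstream nearest to Cd82. Among unmarked genes with high CpG promoters the median was 3 enhancers, with the nearest at a median of 98.6 kb.

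Of the 84 enhancers, 13 lay in the body of the gene, 9 of them in Prrx1. For 32 the listed gene was the nearest coding gene, and for 12 of these it was Prrx1. The share over all enhancers was not computed for either count. An H3K4me3 peak overlapped 13 of the 84, beside 7.52% of all 32965 enhancers. These 13 lay around a few of the genes, 5 of them around Prrx2 and 3 around Meox1. The 5 around Prrx2 were all nearest to Cstad or 1700001O22Rik. Of the 3 around Meox1, only the intronic one was nearest to Meox1 and the others were nearest to Etv4. The centre of 1 enhancer at Etv4 lay 262 bp from an annotated TSS, and that of 1 at 1700001O22Rik 321 bp. Motifs were counted on both strands in the central 200 bases. TGANTCA, a pattern that includes the AP-1 sites TGACTCA and TGAGTCA and is wider than them, was in 13 of 84 (15.5%), beside 14.7% of all enhancers. GGAATG, bound by TEAD factors, was also in 13, beside 15.7%. TAATTA was in 2 (2.38%), beside 2.94%, and both of these were enhancers of Prrx1. The motif shares were near those of all enhancers. The enhancer upstream of Osr2 is shown by its central bases, chr15:35276623-35276822 on the plus strand, because TGANTCA and GGAATG overlap in it. Its TGANTCA match reads TGAATCA, which is neither of the AP-1 sites named above. Capitals mark the joined motifs.
Osr2 enhancer: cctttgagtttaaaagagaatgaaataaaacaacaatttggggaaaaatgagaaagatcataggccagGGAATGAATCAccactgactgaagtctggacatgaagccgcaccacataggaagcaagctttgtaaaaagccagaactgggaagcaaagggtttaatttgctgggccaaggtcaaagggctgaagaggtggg

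Other patterning genes were counted by the same TSS rule, from lists of known factors. Of 10 limb bud factors, 9 were marked, Lmx1b being the exception. High CpG promoters, of which 92.3% were marked over all genes, belonged to 9 of these factors, and 8 of the 9 were marked. Their widest peaks ranged from 260 bp at Hand2, which marks posterior limb bud, to 3017 bp at Gli3, the effector of Hedgehog signals. Of 9 limb signals, 6 were marked, among them Bmp4 (3312 bp) and Fgf10 (2183 bp), and Shh, Gdf5 and Bmp7 were not. High CpG promoters belonged to 6 of the 9, and 4 of these were marked. Of 8 lateral plate factors, 5 were marked, and Hand1, Nkx2-5 and Wt1 were not. Here 6 of the 8 had high CpG promoters, and 5 of these were marked. The shares of both lists stand beside 59.1% of all coding genes.

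In the lists of paraxial mesoderm, 4 of 10 somite factors were marked, namely Hes7 (2542 bp), Ripply2 (565 bp), Nkx3-2 (543 bp) and Mesp1 (350 bp). High CpG promoters belonged to 6 of the 10, and 3 of these 6 were marked, beside 92.3% of all such promoters. Of the 4 muscle determination factors Myod1, Myf5, Myf6 and Myog, none was marked, and of these only Myod1 has a high CpG promoter. Meox1, itself a somite factor, thus stood with the larger class of that list and Meox2 with the smaller. The lists are short, the differences between them were not tested, and 59.1% of all coding genes were marked by this rule.

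**Figure D4:**
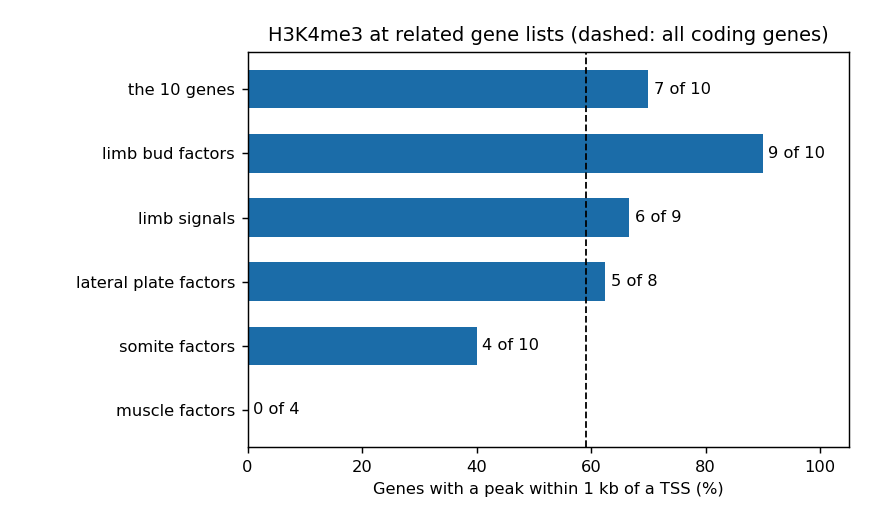
Share in percent of each gene list with a peak within 1 kb of a TSS, with the count of genes at each bar. The dashed line is the share over all coding genes, 59.1%; limb bud factors, 9 of them with high CpG promoters, stand at 9 of 10, and muscle factors, 1 of them with such a promoter, at 0 of 4.

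The fibroblast label of the cells was compared with marker genes. All 8 fibroblast markers, among them Col1a1, Pdgfra and Thy1, had a TSS peak, beside 59.1% of all coding genes. High CpG promoters, of which 92.3% were marked over all genes, belonged to 3 of the 8. Of markers of other cell types, 2 of 5 epithelial, 2 of 4 endothelial, 0 of 4 blood and 1 of 4 neural genes had one. The marked ones were Epcam (724 bp), Cdh1 (602 bp), Kdr (1009 bp), Tek (435 bp) and Tubb3 (1044 bp), and their part in the peaks described above was not tested. Of these, Epcam, Cdh1 and Kdr have high CpG promoters, Tubb3 an intermediate and Tek a low one.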

How the data were processed

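H3K4me3 ChIP-seq libraries of iMEF cells were represented by 2 lists of positions that the authors deposited, with 0 columns of values per sample. In the authors' processing, Trim Galore, BWA against mm10 (GRCm38.p6) and samtools gave filtered alignments, Picard merged the replicates and MACS called narrow peaks. Enhancers had H3K4me1, H3K27ac and ATAC signal in control cells, without overlaps of 1 kb on either side of known TSSs. Merging and the union leave no estimate of replicate error, and a peak or its edge may come from only some libraries. The depth that each library reached is not given in the sources used here, although the methods set a minimum of raw reads per ChIP library.

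Peak starts were counted from 0 and enhancer starts from 1, as their widths imply, and all printed positions count from 1. TSSs and gene bodies were from GENCODE M21, and the representative TSS was that of the best APPRIS principal transcript. Promoters were from RefSeq (GRCm38.p6), which held 6 of the 10 genes. Coding sequences of representative transcripts were aligned end to end (match 1, mismatch -1, gap opening -5, extension -0.5), in place of proteins. The named genes were the list and its paralogues, of which 1 is not reported here, with nearest marked genes and, per other list, at most 4 genes of the smaller class. Further genes, such as Gli3, Hand2, Bmp4, Fgf10 and neighbours of enhancers, were chosen after their values were seen. Members and lists were chosen with earlier results of these data known. No test was made, since no values exist per sample. Interval counts were tested on simulated data and differed from brute-force counts in 0 of 400 queries. Alternatives were other TSS rules, windows, width limits and merging; RefSeq starts were added after seeing the data. Python 3.11.15, NumPy 2.4.6, pandas 2.3.3, Biopython 1.88, pysam 0.24.0 and Matplotlib 3.10.9 were used.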

Additional observations from a re-analysis of the deposited data

How the results depend on the processing

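No paired analysis was possible because neither list has a column for a replicate. The number of the 10 genes with a peak was 8. It was 5 when a peak had to contain a TSS, which left out Msx1, Msx2 and Meox1 beside Tcf21 and Alx4. It was 7 at the TSS alone or with peaks of at least 500 bp, both without Meox1. With the gene body kept in the rule, it was 9 with a window of 3 kb, which added Alx4 by its peak 2229 bp upstream. It was 8 with representative or RefSeq starts. Each of these 8 genes has a peak that overlaps its gene body, so a change of starts alone could not lower the count. The median widest peak was 1591 bp by the rule, 1638 bp at the TSS alone and 1591 bp with peaks joined within 1 kb. The median number of enhancers was 4 within 200 kb, 1.5 within 100 kb and 22 within 500 kb, and 3 after merging. High CpG promoters numbered 5, or 6 with windows at any TSS. Neither the depth that each library reached nor the height of a peak is given in the lists, so an unlisted region may hold signal below the authors' threshold.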
